A study of Homo sapiens with 2 samples.

Results

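The 60 RAB small GTPase genes of the deposited table were compared between the TGF-beta sample, which comes from A549 cells labelled as a TGF-beta-induced model of epithelial to mesenchymal transition (EMT), and the untreated sample, which comes from A549 cells given no treatment. Members were the genes whose symbol is RAB followed by a number and at most 1 letter from A to D, with RAB25 left out, which gave 60 of 57736 genes. A549 is a lung adenocarcinoma cell line, labelled wild type in both libraries, and per the series' design text the cells of the study carry a vimentin reporter with a red fluorescent protein. Each condition has 1 library, made with the AmpliSeq Transcriptome kit from 10 ng of total RNA, so every difference lacks a replicate check and no p-value is given. That kit amplifies chosen stretches of each transcript by PCR. The sources used here state neither dose nor duration of TGF-beta, and fewer cells of a kind and less RNA per cell cannot be told apart in such bulk samples.

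RAB proteins are small GTPases that mark membranes. Each cycles between a GTP-bound form on a membrane, where it recruits effectors such as tethers, motors and sorting proteins, and a GDP-bound form that a GDP dissociation inhibitor (GDI) extracts into the cytosol. Exchange factors (GEFs) load GTP, GTPase-activating proteins (GAPs) end the active state, and a geranylgeranyl transferase attaches the lipid anchor. Different members serve different steps, from transport between the endoplasmic reticulum and the Golgi, through exocytosis, to early, recycling and late endosomes, and in epithelial cells this traffic delivers junction proteins, integrins and growth factor receptors to the cell surface and back.

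The libraries differed in more than their RAB genes. The deposited counts summed to 595124 in the TGF-beta sample and 673135 in the untreated sample, and the 10 genes with the most counts took 43.6% and 32.6% of them. Cytosolic ribosomal protein genes had a median log2 ratio of -3.26 (TGF-beta over untreated), with 61 of 73 at least 2-fold lower. Markers did not follow the label of a TGF-beta response: the TGF-beta target TGFBI had 15 counts in the TGF-beta sample against 407 in the untreated sample and vimentin (VIM) had 56 against 452, while the collagen gene COL1A1 went the other way with 356 against 196. The 7 mesenchymal and TGF-beta markers summed to 443 against 1094 counts, the 8 epithelial markers to 115 against 303 counts, the 6 fibroblast markers to 56 against 67, the 5 leukocyte markers to 9 against 35 and the 4 lung lineage markers to 12 against 11. The lower epithelial sum came from the keratins KRT7 (32 against 179) and KRT8 (16 against 53), while the log2 ratios of EPCAM, CDH1, KRT19 and CLDN4 were above 0 and CLDN7 and KRT18 were at or under the floor. LUM, a fibroblast gene, and LYZ, a leukocyte gene, were at 0 in both. Among lung lineage genes NKX2-1 had 4 against 8 counts and SFTPC 2 against 2. The part of these differences in the RAB results was not tested. Each direction given here rests on the deposited labels of the 2 libraries, and exchanged labels would turn every sign.

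Counts of RAB genes were low. Of the 60 members, 54 had a value above 0 in at least 1 library, and 36 reached 5 CPM (counts scaled to a common library total) in 1 library and entered the comparison. Just 4 members reached 20 counts in the TGF-beta sample and 10 in the untreated sample. Log2 ratios are TGF-beta over untreated, with the exact 95% interval of counting error in parentheses. A count of 0 was set to a floor of 3 counts, which equals 5.31 CPM in the TGF-beta sample and 4.21 CPM in the untreated sample, and equal counts give a log2 ratio of 0.34 after scaling. Counts of different genes are not levels per length and are not ranked against each other here.

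The untreated counts of 4 of these genes lay largely in a pair of neighbouring exonic regions (overlapping exons of a gene merged), and a sequence across the exon boundary between each pair is shown because the differences described next turn on them. A region can be wider than the exon whose sequence is shown, and where in a region the counts lay is not known. Bases are given 5′ to 3′ from GENCODE release 29 transcripts (GRCh38 annotation), with the 30 bases of the upstream exon in lower case and the 30 bases of the downstream exon in capitals. The hg19 positions of the exons are those of the deposited table, all on the plus strand. For RAB1B they are chromosome 11, 66039836 to 66039931 and 66043275 to 66043406. For RAB10 they are chromosome 2, 26332637 to 26332775 and 26350013 to 26350102. For RAB5A they are chromosome 3, 20017093 to 20017244 and 20017539 to 20017661, and for RAB7A chromosome 3, 128514202 to 128514263 and 128516786 to 128516879.
RAB1B: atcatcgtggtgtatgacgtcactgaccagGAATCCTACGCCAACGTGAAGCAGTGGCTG
RAB10: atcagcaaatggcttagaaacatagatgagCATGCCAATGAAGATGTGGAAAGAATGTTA
RAB5A: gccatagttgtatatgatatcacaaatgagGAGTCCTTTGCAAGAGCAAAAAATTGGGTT
RAB7A: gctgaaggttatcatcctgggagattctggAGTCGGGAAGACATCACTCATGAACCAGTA

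RAB genes were more often lower than higher in the TGF-beta sample. Of the 36 that entered, 13 were at least 2-fold lower (36.1%), 6 at least 2-fold higher (16.7%) and 17 lay between. Over all 15401 genes that entered, 26.7% were lower and 22% higher by that size. With DESeq2 size factors, which move all log2 ratios by -0.22, 5 RAB genes were higher and 15 lower, and 2463 of 14067 genes were higher and 4753 lower. The median log2 ratio was -0.57 for the RAB genes (quartiles -1.38 and 0.37) and 0.01 for all genes, or -0.66 and -0.08 without genes that have at most 3 counts in both libraries. By another reading, that the counting interval leave out equality, 10 RAB genes were lower and 4 higher, where all genes gave 16.8% lower and 9.99% higher. The 4 are RAB22A, which lay between by size, and 3 of the 6 at least 2-fold higher. Among the 13 RAB genes with at least 20 CPM in 1 library, 8 were at least 2-fold lower and 2 higher, and 3 lay between. At that level 36% of all genes were lower and 18.5% higher.

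**Figure D1:**
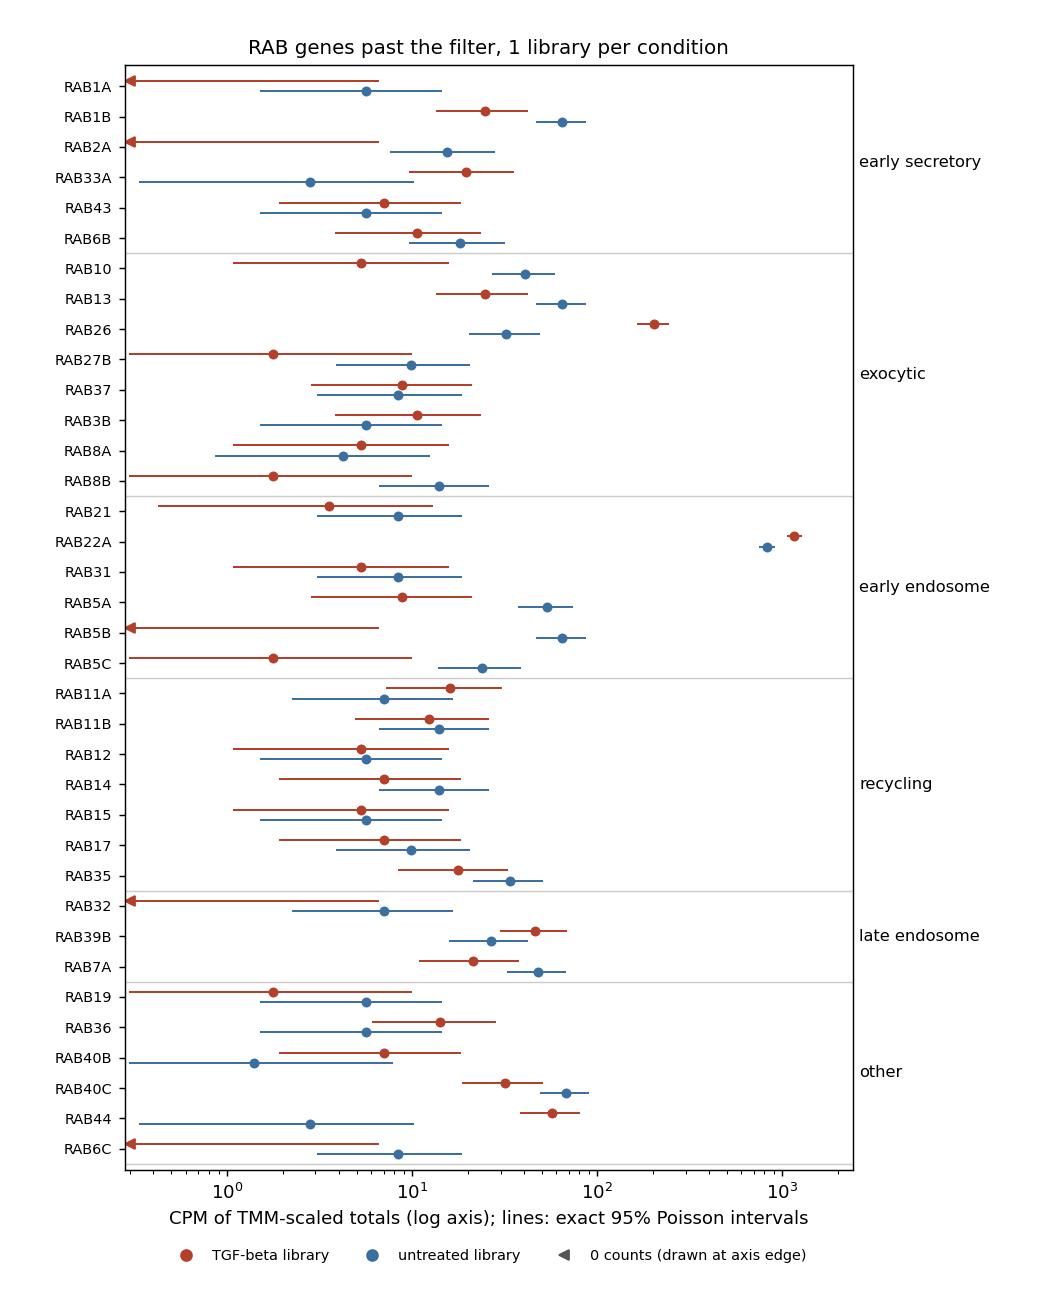
CPM of the scaled totals (log axis) for the 36 RAB genes that entered the comparison, in the TGF-beta sample (red) and the untreated sample (blue), grouped by trafficking step. Lines are exact 95% Poisson intervals, cut at the left edge of the axis, and triangles stand for 0 counts. RAB22A lies far to the right in both libraries, at 1161 and 826 CPM, while RAB5A, RAB5B, RAB5C and RAB10 lie further left in the TGF-beta sample.

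The summed counts were set largely by RAB22A. The 60 members summed to 1004 counts in the TGF-beta sample and 1124 in the untreated sample, a log2 ratio of 0.17 (0.05 to 0.30). RAB22A alone held 65.3% of the RAB counts in the TGF-beta sample and 52.4% in the untreated sample. Without RAB22A the sums were 348 and 535 (log2 ratio -0.28, -0.48 to -0.09), and without RAB22A and RAB26 they were 234 and 512 (-0.79, -1.02 to -0.57). These 2 genes were set aside after their counts were seen.

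Early secretory members carry traffic between the endoplasmic reticulum and the Golgi. Of 12, 6 entered, with 2 at least 2-fold lower and 1 higher, against 26.7% and 22% of all genes that entered. The median log2 ratio was -0.43, with 2 values set at the floor (-1.38 to 0.13 over the alternative settings). RAB1B, which moves vesicles from the endoplasmic reticulum to the Golgi (hg19 chromosome 11, 66036004 to 66044963, plus strand), gave 14 counts in the TGF-beta sample against 46 in the untreated sample (24.8 and 64.5 CPM). Its log2 ratio was -1.38 (-2.36 to -0.49). The exon pair shown above held 0.974 counts in the TGF-beta sample against 36.9 in the untreated sample, whereas the last exonic region, with 195 coding bases of 1449, held 13.0 against 14.0. Exon entries of RAB1B summed to 14.0 against 53.9, where its unrounded gene values were 13.7 against 46.2. The regional values are therefore not exact parts of the gene count. RP11-867G23.3, an antisense gene that overlaps RAB1B, had 1.25 against 16.3 counts.

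RAB2A, which acts between the Golgi and the endoplasmic reticulum, had 0 counts in the TGF-beta sample against 11 in the untreated sample. With the 0 at the floor its log2 ratio was -1.54, and the upper limit of its counting interval was -0.99. RAB33A, a Golgi RAB, went the other way, with 11 counts in the TGF-beta sample against 2 in the untreated sample (log2 ratio 2.80, 0.60 to 6.01), with 9.69 and 1.92 of them in its first exonic region. RAB6B, a paralog of the Golgi RAB RAB6A, had 6 against 13 counts (-0.78, -2.46 to 0.72). RAB1A had 0 against 4 counts and RAB43 had 4 in each library, so no difference was detectable at this depth. RAB6A itself had 0 counts against 1, while the antisense gene RP11-707G14.1 over it had 0 against 25.4, and with no strand setting stated, reads of the pair cannot be told apart.

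Exocytic members carry vesicles from the trans-Golgi to the cell surface. Of 12, 8 entered, with 4 at least 2-fold lower and 1 higher, against 26.7% and 22% of all genes. The median was -0.65, in which RAB8A, at the floor in both libraries, counts as equal. The median of the other 7 was -1.38. RAB10, which serves delivery to the plasma membrane including that of glucose transporter vesicles (chromosome 2, 26256976 to 26360323, plus strand), gave 3 counts in the TGF-beta sample against 29 in the untreated sample (5.31 and 40.7 CPM). The log2 ratio was -2.94 (-5.30 to -1.25). All 29 untreated counts lay in the regions of the exon pair shown above, and none of the 3 TGF-beta counts did: they lay in the first exonic region.

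RAB13, which delivers proteins to tight junctions (chromosome 1, 153954127 to 153958834, minus strand), had the same rounded counts as RAB1B, 14 in the TGF-beta sample against 46 in the untreated sample, and so the same CPM and the same log2 ratio of -1.38 (-2.36 to -0.49). Every RAB13 count lay in its last exonic region. RAB8B, a paralog of the trans-Golgi RAB RAB8A, had 1 count against 10 (-2.99, -8.43 to -0.17), and RAB8A had 3 in each library, which gives no ratio. RAB27B, which docks secretory organelles, had 1 against 7 (-2.47, -7.97 to 0.49). RAB37 (5 against 6 counts) and RAB3B (6 against 4), both RABs of regulated secretion, differed by less than the counting error.

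RAB26, a RAB of secretory granules (chromosome 16, 2190804 to 2204166, plus strand), was the exocytic gene that stood higher. It had 114 counts in the TGF-beta sample against 23 in the untreated sample (202 and 32.3 CPM), a log2 ratio of 2.65 (1.99 to 3.36). Of these, 113 and 22 lay in 1 exonic region, the second of 9 (2198145 to 2198325), which holds no annotated coding base. The other counted region held 1 count in each library.

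**Figure D2:**
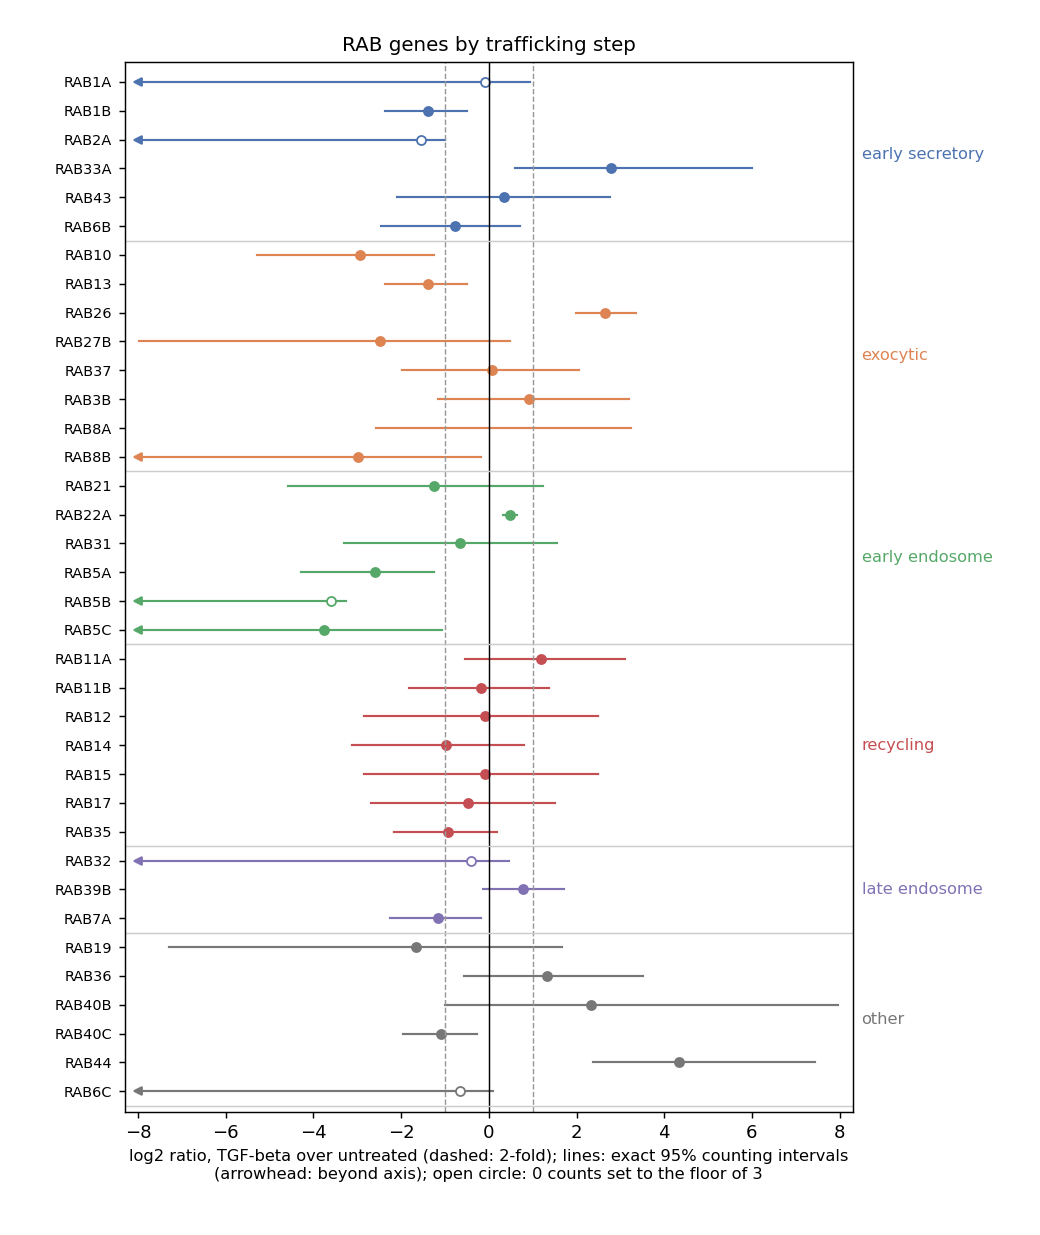
Log2 ratio of the TGF-beta sample over the untreated sample for the same 36 genes by trafficking step. Lines are exact 95% counting intervals, arrowheads mark intervals that run beyond the axis, open circles are genes with 0 counts set to the floor, dashed lines mark 2-fold, and RAB8A has no point because both counts were at the floor. The RAB5 paralogs and RAB10 lie left of the lower dashed line with their whole interval, and the intervals of all recycling genes cross equality.

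Early endosome members had the lowest median of the steps, -1.92 over 6 entered genes (-3.10 to -1.25 over the alternative settings). Of the 6, 4 were at least 2-fold lower and 0 higher, against 26.7% and 22% of all genes. The RAB5 paralogs, which drive fusion of early endosomes, were 3 of those 4. RAB5A (chromosome 3, 19988571 to 20026667, plus strand) gave 5 counts in the TGF-beta sample against 38 in the untreated sample (8.85 and 53.3 CPM), with a log2 ratio of -2.59 (-4.29 to -1.24). RAB5B (chromosome 12, 56367697 to 56388490, plus strand) had 0 against 46 (0 and 64.5 CPM). With the 0 at the floor its log2 ratio was -3.60, and the upper limit of its counting interval was -3.25. RAB5C (chromosome 17, 40276994 to 40307035, minus strand) had 1 against 17 (1.77 and 23.8 CPM, log2 ratio -3.75, -9.14 to -1.08). Summed, the 3 paralogs had 6 counts in the TGF-beta sample and 101 in the untreated sample (-3.74, -5.22 to -2.57). How many of the RAB5C counts belong to an overlapping gene is not known.

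The position of the counts differed along with their number. In RAB5A the regions of the exon pair shown above held 1.0 count in the TGF-beta sample against 36.7 in the untreated sample, whereas the noncoding first exonic region held 4.0 against 1.0. In RAB5B the untreated counts lay mainly in exonic regions 9 (14.5) and 10 (29.5) of 10. RAB5C overlaps a gene on the same strand, CTD-2132N18.3, which took 2.19 against 40.7 counts. The exon entries of RAB5C account for only 0.5 of its untreated counts. Neither the position of the RAB5C counts nor their split from the overlapping gene could be read, so its ratio is uncertain.

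RAB22A, an early endosome sorting RAB (chromosome 20, 56884752 to 56942563, plus strand), stood apart from the RAB5 paralogs. It had 656 counts in the TGF-beta sample and 589 in the untreated sample (1161 and 826 CPM), a log2 ratio of 0.49 (0.33 to 0.65), which is 0.27 with DESeq2 size factors. The last exonic region, 7902 bases of which 98 are coding, held 652 and 581 of these counts, while the coding regions 6 and 7 together held 4.0 in the TGF-beta sample against 4.80 and 2.70 in the untreated sample. RAB31, which carries cargo from the trans-Golgi to endosomes, had 3 against 6 counts (-0.66, -3.29 to 1.56). RAB21, which moves integrins through early endosomes, had 2 against 6 (-1.25, -4.59 to 1.23).

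**Figure D3:**
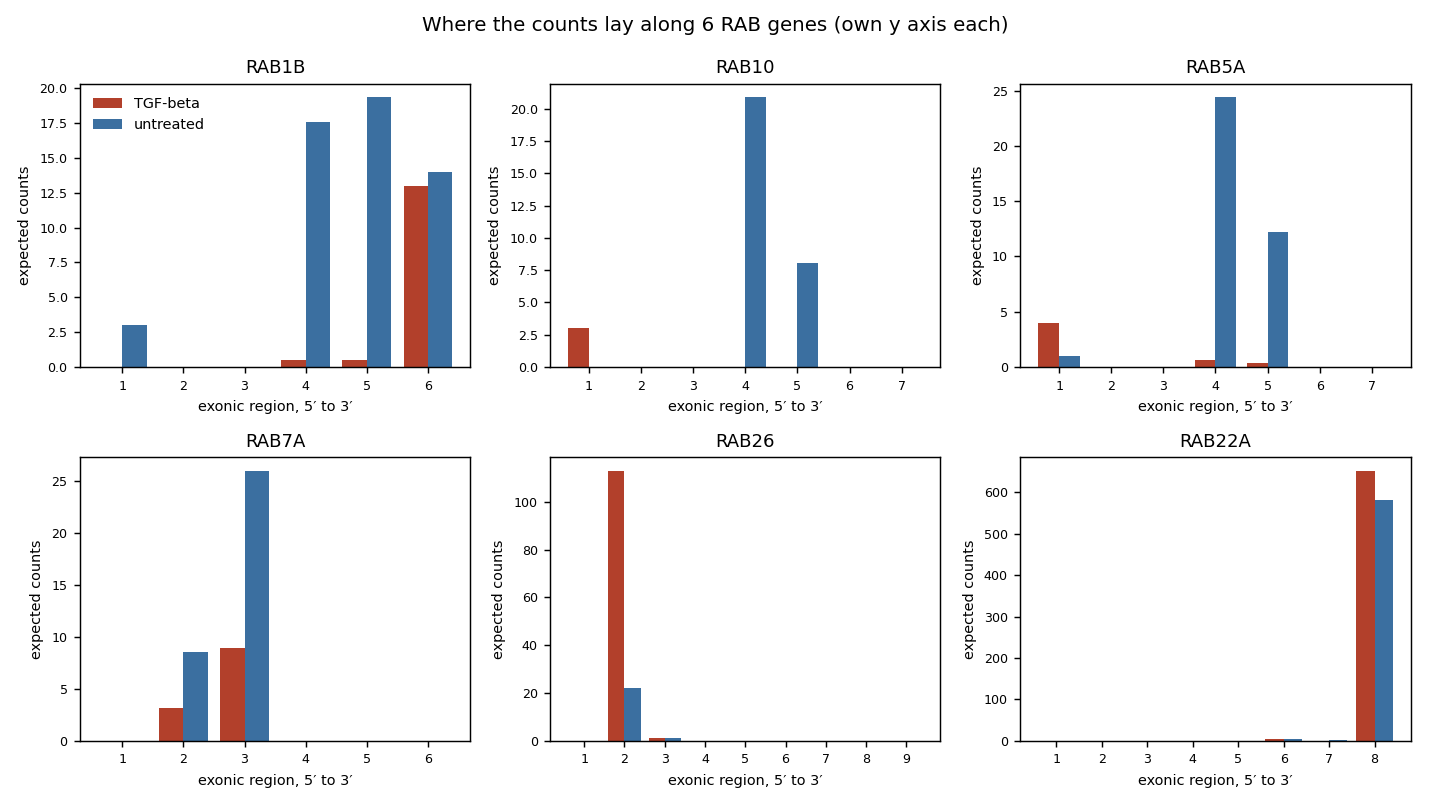
Expected counts along 6 RAB genes, by exonic region from 5′ to 3′ (overlapping exons of all transcripts merged), in the TGF-beta sample (red, left) and the untreated sample (blue, right), each panel with its own y axis from 0. Regions 4 and 5 of RAB1B, RAB10 and RAB5A are tall only in the untreated sample, the last region of RAB1B is alike in both, RAB7A keeps the same pair of regions in both, and RAB26 and RAB22A have nearly all counts in 1 region.

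Recycling members return cargo to the cell surface. Of 9, 7 entered, with 0 at least 2-fold lower and 1 higher, against 26.7% and 22% of all genes. The median log2 ratio was -0.18 (-0.93 to -0.075 over the alternative settings), and the counting intervals of all 7 included equality. RAB35, a RAB of fast recycling (chromosome 12, 120532899 to 120555306, minus strand), had 10 counts in the TGF-beta sample against 24 in the untreated sample (17.7 and 33.7 CPM), with a log2 ratio of -0.93 (-2.16 to 0.19). RAB11A, the RAB of the recycling endosome, had 9 against 5 (1.18, -0.55 to 3.11), and its paralog RAB11B had 7 against 10 (-0.18, -1.81 to 1.36). RAB14, which recycles between endosomes and the Golgi, had 4 against 10 (-0.99, -3.11 to 0.81), and RAB17, a RAB of polarized epithelial cells, had 4 against 7. RAB12 and RAB15 each had 3 against 4. At these counts a difference of several-fold would not be detectable for most of the 7 genes, and their difference from the early endosome genes was not tested.

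Late endosome members had 3 of 8 genes in the comparison, with 1 at least 2-fold lower and 0 higher, against 26.7% and 22% of all genes. The median was -0.40. That median is the value of RAB32 with its 0 at the floor, and it was -1.13 on the log2(CPM + 1) scale. RAB7A, the RAB of late endosomes and lysosomes (chromosome 3, 128444965 to 128533639, plus strand), gave 12 counts in the TGF-beta sample against 34 in the untreated sample (21.2 and 47.7 CPM), a log2 ratio of -1.17 (-2.25 to -0.18). Every RAB7A count in both libraries lay in the regions of the exon pair shown above, with 12 against 34.5 expected counts. RAB39B, a paralog of the late endosomal RAB39A, had 26 against 19 counts (46.0 and 26.6 CPM, log2 ratio 0.79, -0.12 to 1.72), all in its first exonic region. RAB32, of lysosome-related organelles, had 0 against 5, which is within the counting error.

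Of the 12 genes with another or no assigned step, 6 entered. RAB44 (chromosome 6, 36683256 to 36699870, plus strand) had the highest ratio of all RAB genes in the comparison, with 32 counts in the TGF-beta sample against 2 in the untreated sample (56.6 and 2.80 CPM) and a log2 ratio of 4.34 (2.37 to 7.44). Of these, 30.3 and 0.667 lay in 1 coding exonic region of 1583 bases. RAB40C, a RAB with a SOCS box that joins a ubiquitin ligase (chromosome 16, 639357 to 679272, plus strand), had 18 against 48 counts (31.9 and 67.3 CPM), with a log2 ratio of -1.08 (-1.95 to -0.27), all in its noncoding first region. RAB36 had 8 against 4 counts, RAB40B 4 against 1, RAB19 1 against 4 and RAB6C 0 against 6, each with an interval that includes equality.

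The remaining 24 members did not reach the filter. RAB2B, RAB3A, RAB3C, RAB18, RAB28 and RAB38 had 0 in both libraries, where a count of 0 allows up to 3 counts. The other 18 had at most 3 rounded counts in either library. They were RAB6A, RAB30, RAB33B and RAB41 of the early secretory step, RAB3D and RAB27A of exocytosis, RAB20 of early endosomes, and RAB4A and RAB4B of recycling. RAB9A, RAB9B, RAB24 and RAB39A of late endosomes, and RAB1C, RAB23, RAB34, RAB40A and RAB42, were the others.

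Lower counts of single RAB genes lay often in internal regions, while the sum over all RAB genes had a ratio close to that of all genes there. Among members with at least 5 counts in internal exonic regions (all but the first and last, over both libraries together), 11 of 17 were lower there by at least 2-fold and 2 higher. Over all genes the shares were 39.9% lower and 18.2% higher. In last exonic regions 5 of 11 members were at least 2-fold lower and 0 higher, where all genes gave 27.6% and 27.7%. Summed over all 54 RAB genes with at least 3 regions, internal counts were 191.2 in the TGF-beta sample against 274.5 in the untreated sample (log2 ratio -0.19, -0.46 to 0.09), where all genes gave -0.18, and last-region counts were 721.3 against 748.8 (0.28, 0.13 to 0.43), where all genes gave 0.10. RAB26 was left out of further sums after its high internal count was seen, and RAB22A after its high last-region count, so those sums follow in part from that choice. Without RAB22A and RAB26 the internal counts of 52 RAB genes summed to 73.2 in the TGF-beta sample and 244.0 in the untreated sample (log2 ratio -1.40, -1.80 to -1.02), the last regions to 69.3 and 167.8 (-0.94, -1.37 to -0.54), and the first regions to 50.0 and 68.9 (-0.13, -0.68 to 0.42). The split by place was made after the counts were seen.

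**Figure D4:**
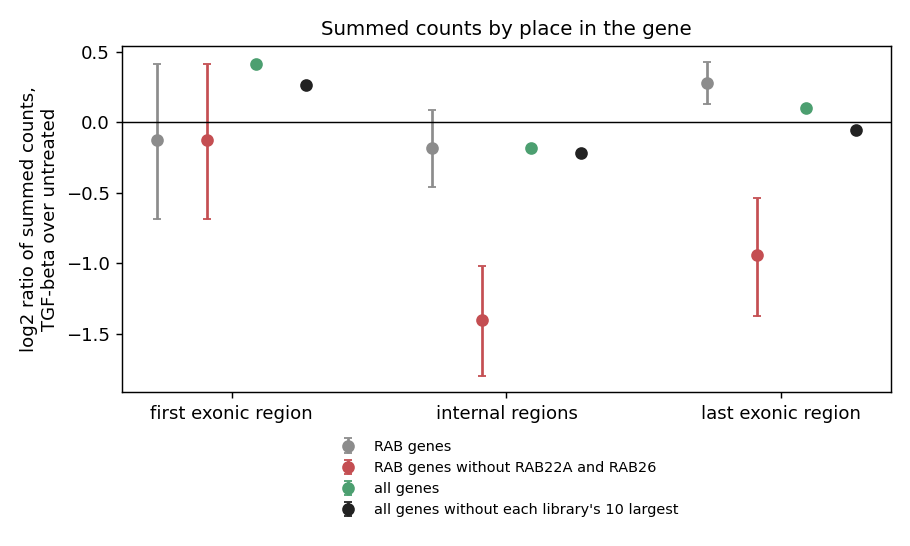
Log2 ratio of summed counts (TGF-beta over untreated) by place in the gene, for genes with at least 3 exonic regions. Points are the ratios and bars the exact 95% counting intervals, which are smaller than the points for all genes. In internal regions the RAB genes lie at -0.19 and all genes at -0.18. Without RAB22A and RAB26, left out after their counts were seen, the RAB genes lie at -1.40. All genes without the 10 with the most counts in each library lie at -0.22. The removals followed different rules, so -1.40 and -0.22 are not a like comparison.

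By step, the internal counts varied. Internal counts of early secretory genes summed to 3.71 in the TGF-beta sample against 57.4 in the untreated sample (log2 ratio -3.61, -5.42 to -2.06), while their last regions held 24.0 against 30.5 (-0.01, -0.82 to 0.84). Exocytic genes had 119.5 against 73.1 internal counts (1.05, 0.62 to 1.49), of which RAB26 held most in the TGF-beta sample, and without RAB26 they had 5.5 against 50.1 (-2.85, -4.24 to -1.50). Early endosome genes without RAB22A had 2.0 against 60.3 (-4.58, -7.65 to -2.66), and 7.0 against 1.0 in their first regions. RAB22A itself had 4.0 against 7.5 internal counts, and with it the early endosome ratio would be less extreme. Recycling genes had 15.7 against 32.5 internal counts (-0.71, -1.67 to 0.19) and late endosome genes 12 against 39.0 (-1.37, -2.43 to -0.40). Each of these sums rests on few genes, and the differences between steps were not tested.

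Paralogs of a step are similar but separable in sequence. Coding sequences of RAB5A and RAB5B were 72.6% identical, those of RAB5A and RAB5C 73.6% and those of RAB5B and RAB5C 78.7%, with a longest identical stretch of 26 bases. RAB1A and RAB1B were 76.5% identical and RAB11A and RAB11B 73.1%. RAB6C, an intronless relative of RAB6A, was 96.3% identical to it with a shared stretch of 121 bases, so the 0 and 6 counts of RAB6C and the 0 and 1 of RAB6A are uncertain. The opposite-strand gene AC079776.7 over RAB6C also had 0 against 6 counts. With no strand setting stated, reads of that pair cannot be told apart. Of the 36 members compared, 18 overlap another annotated gene that has counts, 15 of them on the opposite strand.

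The counts of the RAB5 paralogs were lower together in the TGF-beta sample, those of RAB5C with an uncertain assignment. The 250 bases upstream of each start are shown for that reason, 5′ to 3′ from RefSeq (GRCh38.p14). RAB5A lies at chr3:19946847-19947096 on the plus strand, RAB5B at chr12:55973699-55973948 on the plus strand and RAB5C at chr17:42154990-42155239 on the minus strand. Capitals mark the GC box, GGGCGG on either strand.
RAB5A: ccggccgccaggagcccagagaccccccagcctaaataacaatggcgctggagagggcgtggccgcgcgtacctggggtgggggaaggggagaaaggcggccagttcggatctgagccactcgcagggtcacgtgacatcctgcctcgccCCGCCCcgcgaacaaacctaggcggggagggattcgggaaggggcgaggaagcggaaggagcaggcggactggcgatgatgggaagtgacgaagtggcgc
RAB5B: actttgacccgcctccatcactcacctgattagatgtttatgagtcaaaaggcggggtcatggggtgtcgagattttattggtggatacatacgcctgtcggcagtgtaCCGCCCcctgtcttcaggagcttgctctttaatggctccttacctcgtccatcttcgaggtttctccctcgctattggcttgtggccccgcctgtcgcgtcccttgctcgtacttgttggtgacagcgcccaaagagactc
RAB5C: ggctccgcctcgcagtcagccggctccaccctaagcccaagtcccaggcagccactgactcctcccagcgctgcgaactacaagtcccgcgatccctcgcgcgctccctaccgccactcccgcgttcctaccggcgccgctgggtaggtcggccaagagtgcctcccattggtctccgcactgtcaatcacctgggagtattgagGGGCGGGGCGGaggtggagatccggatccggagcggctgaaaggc

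All 3 upstream sequences hold a GC box, 1 each in RAB5A and RAB5B and 2, overlapping, in RAB5C. Sequences were matched for 46 of the 60 RAB genes, of which 82.6% hold a GC box, against 42.3% of 27305 genes of every kind in the table, and their median GC content was 65.4% against 58.0%. None of the 3 holds the palindromic SMAD-binding element GTCTAGAC, which 0.176% of all sequences hold. The AP-1 site TGANTCA occurs 1 time in RAB5B, and in 4.35% of RAB and 6.60% of all sequences. A match is a run of letters and not a measured site.

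Genes of RAB prenylation and membrane cycling had a lower median than the RAB genes. Of 10 such genes 7 entered, with 5 at least 2-fold lower and 0 higher, against 26.7% and 22% of all genes. The median log2 ratio was -2.66 with 5 of the 7 values set at the floor. Counts of all 10 summed to 8 in the TGF-beta sample against 179 in the untreated sample. GDI2, the GDP dissociation inhibitor that extracts many RABs from membranes, had 0 counts against 53, a log2 ratio of -3.81 with the 0 at the floor. RABAC1, a prenylated RAB acceptor, had 0 against 46 (-3.60 at the floor), and RABGGTB, the beta subunit of the geranylgeranyl transferase, had 0 against 24 (-2.66 at the floor). RABIF, a chaperone of nucleotide-free RABs, had 2 against 20 (-2.99, -6.13 to -0.94).

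**Figure D5:**
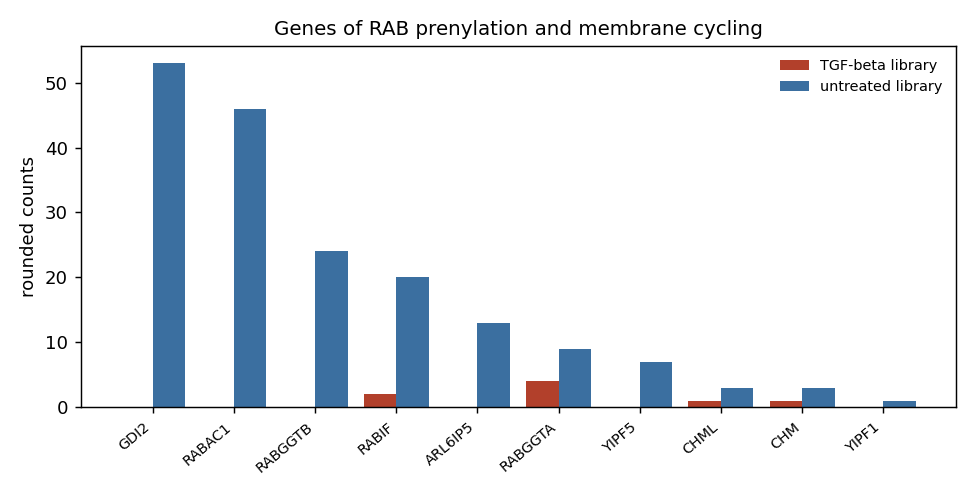
Rounded counts of the 10 genes of RAB prenylation and membrane cycling, with the TGF-beta sample in red on the left and the untreated sample in blue on the right of each pair. Every gene has fewer counts in the TGF-beta sample, with 0 against 53 for GDI2 and 0 against 46 for RABAC1.

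Regulators of the GTP cycle and effectors had medians nearer to that of all genes. Over all 150 regulators and effectors, 116 entered, 33 were at least 2-fold lower (28.4%) and 15 higher (12.9%), with a median of -0.22, against 26.7% and 22% of all genes. GEFs had 10 of 35 lower and 4 higher. MON1B, a subunit of the RAB7A exchange factor, had 5 counts in the TGF-beta sample against 34 in the untreated sample (-2.43, -4.14 to -1.07). TRAPPC1, of the TRAPP complex that activates RAB1, had 0 against 16, and DENND6B had 11 against 48 (-1.79, -2.88 to -0.82). DENND2C, with a DENN exchange domain, went the other way with 77 against 48 (1.02, 0.48 to 1.57), as did KIAA1432 with 16 against 7 (1.53, 0.17 to 3.05) and MADD, a RAB3 exchange factor, with 15 against 9 (1.07, -0.21 to 2.45). Over both libraries, 1 exonic region held 98.0% of the exon counts of DENND2C, 92.4% of KIAA1432 and 49.8% of MADD. For the lower genes it held 82.1% (MON1B), 59.3% (TRAPPC1) and 55.4% (DENND6B).

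GAPs showed a median of 0.34, the value of equal counts, with 5 of 29 at least 2-fold lower (17.2%) and 3 higher (10.3%). Over all genes 26.7% were lower and 22% higher. TBC1D2, a GAP of RAB7, had 10 against 23 counts (-0.87, -2.10 to 0.26), TBC1D12 had 8 against 18 and TBC1D1 had 37 against 56, while TBC1D2B (14 against 7), TBC1D14 (14 against 8) and EVI5L (15 against 10) stood above. All 6 intervals include equality. Effectors had 13 of 45 lower (28.9%) and 8 higher (17.8%), near the shares of all genes, with a median of -0.22. OPTN, optineurin, which binds RAB8, had 2 counts against 24 (-3.25, -6.38 to -1.24), RUFY1 had 4 against 17 (-1.75, -3.78 to -0.14) and RAB11FIP5, which binds RAB11, had 7 against 23 (-1.38, -2.84 to -0.11). EHBP1, which binds RAB8 and RAB10, had 28 against 3 (3.56, 1.86 to 5.92), RAB11FIP4 had 25 against 11 (1.52, 0.45 to 2.69) and SYTL1, which binds RAB27A, had 18 against 8 (1.51, 0.23 to 2.92). Over both libraries, 1 exonic region held 86.9% of the exon counts of EHBP1, 90.4% of SYTL1 and 31.0% of RAB11FIP4. For the lower genes it held 63.2% (OPTN), 37.6% (RUFY1) and 44.0% (RAB11FIP5).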

How the data were processed

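Values in the deposited table are expected counts, that is, estimated and partly fractional, with no normalization, on gene, transcript and exon entries in hg19 coordinates for both libraries; hg19 and DESeq are listed in the submitters' processing notes, while the sources used here state no aligner, counter or strand setting. Whole numbers (within 1e-04) made up 53.6% of nonzero gene values in the TGF-beta sample and 47.8% in the untreated one. Gene entries were rounded to whole numbers (597133 and 674784 counts) and scaled with TMM in edgeR 4.0.16 under R 4.3.3; alternatives used DESeq2 1.42.0 size factors and other totals and filters. A gene entered with at least 5 CPM in 1 library, and 0 was set to a floor of 3 counts. Ratios carry exact 95% Clopper-Pearson intervals, given the total of both counts, and CPM exact Poisson intervals. PCR reads carry no molecular identifiers and do not each stand for a molecule: every interval and floor covers counting error only. Exon entries, merged where they overlap, placed the counts; they came within 1 count of the gene value in both libraries for 31 of 36 members. A region counts as read with at least 0.5 counts. The ratio calculation was tested on simulated data. Named RAB genes had at least 20 CPM in 1 library; others are named to account for every member, and regulators are the 3 lowest and 3 highest of each class at 20 CPM. Of 154 regulator symbols 2 were not matched and others were older names of the same gene, which left 150 genes. A marker and a regulator of the lists are not reported here and enter no list value. Members, lists and steps were chosen with earlier results of these data known. Amplicon positions of the kit played no part.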

Additional observations from a re-analysis of the deposited data

How the results depend on the processing

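Of 116 values of lists under alternatives, 104 kept their direction and stayed within a limit. That limit was the counting interval for sums and 1.5 times for numbers of genes. For medians it ran from the median lower to the median upper end of the members' intervals. It is wide (-4.44 to -0.21 for early endosome genes) and is no interval of the median, so it is a weak check. The settings of 1 CPM and no filter gave the same values. The summed RAB ratio of 0.17 (log2) turned to -0.046 with DESeq2 size factors, -0.28 without RAB22A and -0.79 without RAB22A and RAB26, and was 0.013 with total counts, so its sign depends on RAB22A and on the scaling. RAB genes at least 2-fold higher numbered 10 at 1 CPM or with no filter and 2 at 20 CPM, and those at least 2-fold lower numbered 8 at 20 CPM, where 13 genes entered. At 1 CPM and with no filter the medians of early secretory and late endosome genes turned to 0.13 and 0.34; these settings admit genes with at most 3 counts, whose 0 is set to the floor. The RAB median ranged from -1.17 (20 CPM) to -0.13 (1 CPM or no filter). Against TMM, all log2 ratios moved by -0.22 under DESeq2 scaling, -0.16 (total counts), 0.08 (upper quartile) or 0.10 (total without the 10 genes with the most counts). With TMM 3391 of all genes were higher and 4111 lower. Under the 5 settings that can change the ratio of a single gene (the 4 scalings and log2(CPM + 1)), 0 of 175 values of named genes changed sign, and 1, RAB22A, left its counting interval. The filters only change which genes enter. Step medians rest on few genes. Early endosome genes had the lowest in each of 11 settings, the main one included, but in 1 of them by little. With counts over more than 1 exonic region, which leaves out RAB5C, their median was -1.25. Exocytic genes then had -1.20 and late endosome genes -1.17 (1 gene). That exocytic median includes RAB8A, which has no ratio. Without RAB8A it would be the value of RAB27B, -2.47, and the lowest, so the rank of early endosome genes is not firm. Scalings that keep the same genes move every step alike and could not change that order. The settings of 1 CPM and no filter admitted the same genes. The order of the other steps changed with the filter, with recycling genes at -0.93 (1 gene) and late endosome genes at -0.19 (2 genes) at 20 CPM. The choices of RAB22A and RAB26 and the use of unrounded counts were added after seeing the data. No library could be left out, and no paired analysis was possible because each group has 1 library. Depth limits most RAB genes to large differences.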
